A study of Mus musculus with 6 samples.

Results

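The genes described here are 9 transcripts used as markers of astrocytes, Gfap, Aqp4, Slc1a2, Slc1a3, Aldh1l1, Aldoc, Cldn10, S100b and Fgfr3, chosen by symbol from the 24062 gene symbols of a count table of mouse auditory nerve. All 9 were in the table and passed the filter on low counts. RNA was sequenced from auditory nerves dissected out of the cochleae of young adult mice, 3 wildtype and 3 Vcan knockout, with the tissue of 2 cochleae of a mouse pooled into each library. The labels give the strain as C57BL/6 for both groups, and the series' design names the wildtype mice C57BL/6J. Vcan encodes versican, a chondroitin sulfate proteoglycan of the extracellular matrix. Which part of Vcan was altered, and whether the knockout reached every cell, is not given in the sources used here.

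The auditory nerve changes its glia along its course. Near the cochlea its axons are wrapped by Schwann cells, and beyond the glial transition zone, toward the brainstem, by oligodendrocytes with astrocytes between them. Astrocytes hold the filament protein GFAP, take up glutamate and potassium released by axons, and move water through AQP4 at their endfeet. The markers differ in how far they are restricted to astrocytes: S100b is also made by Schwann cells and, like Fgfr3 and Slc1a3, by supporting cells of the cochlea, and nonmyelinating Schwann cells can make Gfap. These are examples, and the other markers, Aqp4 included, are not thereby restricted to astrocytes. A dissected nerve can therefore hold these transcripts from several cells, and which cells they came from was not measured.

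CPM is a gene's count divided by the library's total after TMM scaling and multiplied by the same constant in every library. Libraries held 74530860 to 92513887 counts. Wildtype replicate 3 stood apart, with a Pearson r of 0.958 to 0.966 to each of the other 5 libraries (across genes, which are not independent replicates, on log2 CPM with 1 added), against 0.971 to 0.994 for the remaining pairs. Knockout replicate 1 lay closer to wildtype replicate 1 (0.989) than to knockout replicates 2 and 3 (0.971 and 0.973). Spiral ganglion neuron genes were abundant, with Snap25 at 1533 to 3501 CPM. The stria vascularis gene Dct was at 1266 CPM in wildtype replicate 3, at 206 CPM in knockout replicate 2 and at 0.962 to 36.8 CPM in the other libraries. Vcan itself was at 8.36, 9.61 and 7.32 CPM in the wildtype libraries and at 5.44, 2.70 and 2.88 CPM in the knockouts, with no overlap (log2 fold change −1.20, SE 0.32; edgeR adjusted p = 0.558, DESeq2 adjusted p = 0.0334).

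Gfap and S100b lay far apart in how they varied over the libraries, and the sequences at their starts are shown for that reason. Each window runs from 250 bases before to 50 bases after the gene's start (RefSeq, GRCm38.p6), for Gfap at chr11:102897151-102897450 on the minus strand and for S100b at chr10:76253586-76253885 on the plus strand, both printed 5′ to 3′ along the gene. Capitals mark matches, on either strand, to the STAT-type motif TTCNNNGAA and to the NFI half-site TTGGC.
Gfap: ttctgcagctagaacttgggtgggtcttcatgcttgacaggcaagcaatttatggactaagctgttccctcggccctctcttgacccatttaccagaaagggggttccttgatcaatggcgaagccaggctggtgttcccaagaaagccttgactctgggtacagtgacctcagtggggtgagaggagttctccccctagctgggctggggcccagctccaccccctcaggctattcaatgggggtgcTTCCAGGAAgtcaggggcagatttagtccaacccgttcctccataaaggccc
S100b: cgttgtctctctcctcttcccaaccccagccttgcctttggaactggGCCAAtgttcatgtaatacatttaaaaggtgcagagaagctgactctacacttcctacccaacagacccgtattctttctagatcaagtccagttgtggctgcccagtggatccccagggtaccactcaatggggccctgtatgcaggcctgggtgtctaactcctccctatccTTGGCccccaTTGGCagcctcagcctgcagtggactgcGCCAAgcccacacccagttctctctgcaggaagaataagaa
The Gfap window held 1 match to TTCNNNGAA, which occurred in 8.30% of the 32851 promoter windows of this length, and none to TTGGC. The S100b window held 4 matches to TTGGC, which occurred in 46.7% of windows, and none to TTCNNNGAA. The full palindromic NFI motif, which contains the half-site, the SOX-type motif ACAATG, the AP-1-type motif TGANTCA and TATAAA were also searched on both strands and were in neither window. In that order they occurred in 0.0365%, 12.6%, 7.81% and 13.6% of windows. A match describes the letters only. The window of Slc1a2, the marker nearest to Gfap in profile, held a match to TTGGC and none to TTCNNNGAA. Windows of Aldoc held matches to both, and that of Slc1a3 to TTCNNNGAA but not TTGGC. A link between motifs and profiles was not tested.

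Per base of exon the markers spanned a wide range of levels. S100b was the most abundant, at 1363 ± 1064 CPM per kb of exon in wildtype nerve (SD, n = 3), followed by Gfap at 91.2 ± 33.96 and Aldoc at 83.0 ± 29.4, which did not differ beyond their spread. Slc1a3 (36.5 ± 1.51) and Aqp4 (32.8 ± 13.6) came next and were again within their spread. Fgfr3 (10.6 ± 7.61), Slc1a2 (9.27 ± 2.63) and Aldh1l1 (7.41 ± 2.52) followed, and Cldn10 was the least abundant at 2.35 ± 0.653 CPM per kb (all SD, n = 3). In knockout nerve the order was the same at its ends, with S100b at 908 ± 410 and Cldn10 at 1.11 ± 0.0295 CPM per kb (SD, n = 3), while Aldoc (76.0 ± 7.82) stood above Gfap (54.9 ± 17.1), and Slc1a3 (32.7 ± 4.77) was, as in wildtype nerve, above Aqp4 (11.7 ± 2.89).

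The 9 markers did not follow a common pattern within the wildtype group, and they are therefore compared between libraries before the genotypes. In wildtype replicate 3, Gfap, Aqp4, Slc1a2, Slc1a3 and Aldoc were lower than in both other wildtype libraries, while S100b, Fgfr3 and Aldh1l1 were higher than in both. Of all 16722 genes tested, 41.2% were lower and 37.6% higher in wildtype replicate 3 than in both others, so neither direction is unusual for a gene. The size differed by marker. S100b was 3.44 times and Fgfr3 3.14 times the mean of wildtype replicates 1 and 2, Aldh1l1 was 1.69 times that mean, and Aqp4, Gfap, Aldoc and Slc1a2 were 0.490, 0.537, 0.550 and 0.588 times theirs.

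**Figure D1:**
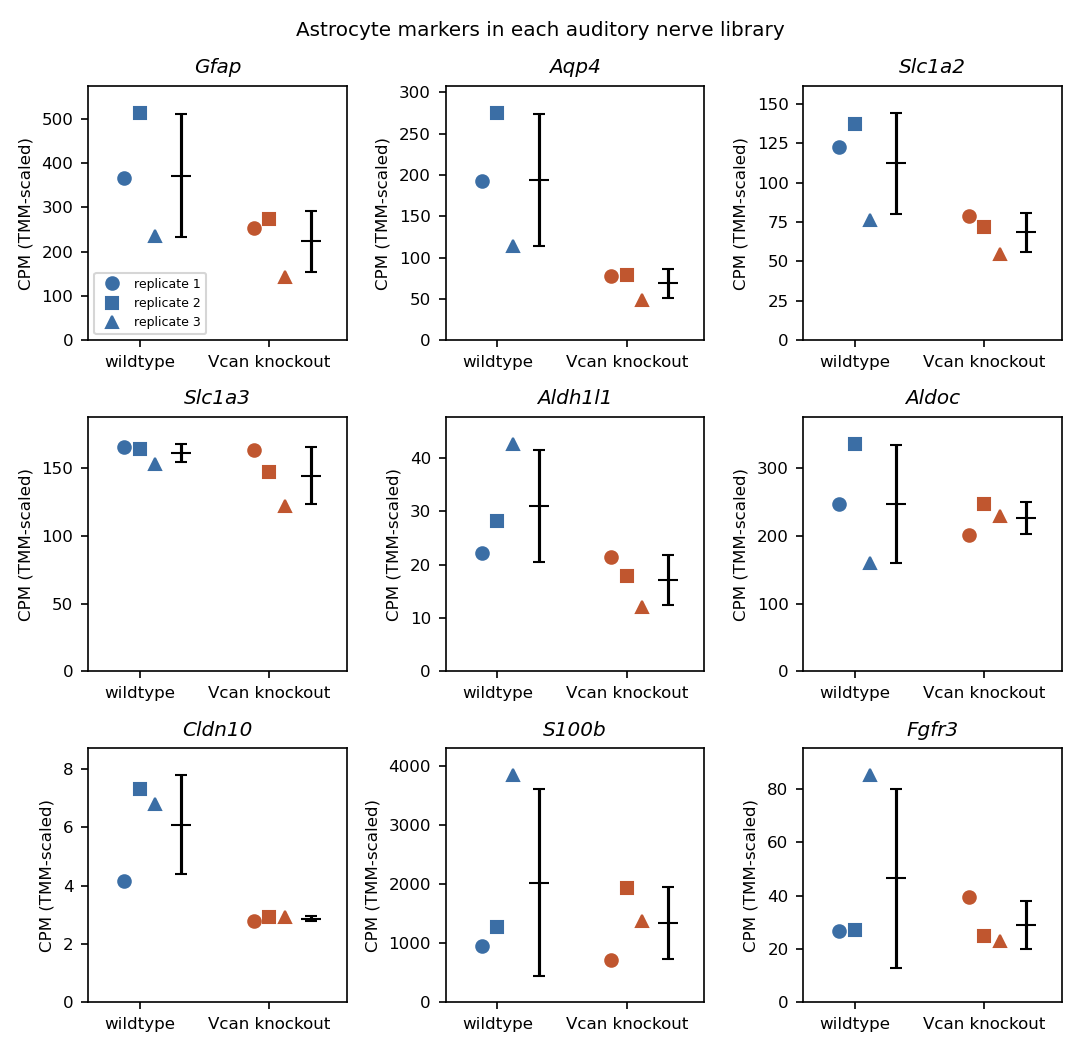
CPM (TMM-scaled) of each marker in each library, with wildtype in blue, Vcan knockout in orange, the replicate number as the symbol, and black bars for the mean ± SD over 3 libraries. Aqp4, Aldh1l1 and Cldn10 show no overlap between the groups, and the triangle of wildtype replicate 3 is the lowest wildtype point for Gfap, Aqp4, Slc1a2, Slc1a3 and Aldoc and the highest for Aldh1l1, S100b and Fgfr3.

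No marker passed the test between genotypes over all genes, although all 9 had a negative fold change. Of the 16722 genes tested, 0.138% were called in either direction and 0.0718% lower in knockout nerve (edgeR quasi-likelihood test, Benjamini-Hochberg adjusted p under 0.05), and 51.1% had a negative fold change. The median log2 fold change was −0.71 over the 9 markers and −0.01 over all genes tested. At an unadjusted p under 0.05, 4 of the 9 were lower (Aqp4, Cldn10, Slc1a2 and Aldh1l1) and 0 higher, against 2.64% lower and 2.56% higher of all genes. In 3 of the 9 (Aqp4, Aldh1l1 and Cldn10) all knockout libraries lay below all wildtype libraries, which was so for 4.93% of genes, and in 0 of the 9 above them, which was so for 5.41%. DESeq2 called 2 of the 9 lower, Aqp4 and Cldn10, against 0.723% of genes lower and 1.39% in either direction. In the authors' deposited table Aqp4 and Cldn10 likewise have an adjusted p under 0.05 and are lower, which is so for 0.714% of its genes. In bulk tissue, fewer cells of a type and less RNA per cell cannot be told apart. How much of each nerve segment a dissection held was not measured either.

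Aqp4, a water channel found at astrocyte endfeet (chromosome 18, 15389394 to 15410982, minus strand, GRCm38.p6), showed the largest difference. It was at 192.5, 275 and 115 CPM in wildtype replicates 1, 2 and 3 and at 78.2, 79.2 and 49.2 CPM in the knockout replicates. Every knockout library lay below every wildtype library, and wildtype replicate 3 was the nearest to them. The log2 fold change was −1.49 (SE 0.35; edgeR unadjusted p = 0.00398, adjusted p = 0.381). DESeq2 gave the same change with an adjusted p of 0.00352, and the authors' deposited table gives −1.05 with an adjusted p of 0.0037. The deposited changes were also smaller than in the DESeq2 fit here for Cldn10 (−0.85 against −1.09) and Vcan (−0.87 against −1.20). The reason was not tested. The DESeq2 call was lost without wildtype replicate 1 (adjusted p = 0.0521), wildtype replicate 2 (adjusted p = 0.0916) or knockout replicate 3 (adjusted p = 0.108).

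Cldn10, a claudin of cell junctions that astrocytes also express (chromosome 14, 118787871 to 118874525, plus strand), was the marker with the least spread among knockout libraries. It was at 4.15, 7.31 and 6.78 CPM in wildtype nerve and at 2.78, 2.91 and 2.91 CPM in knockout nerve, on 211 to 657 counts a library. The knockout libraries were within 0.07 of each other on the log2 scale, and the wildtype libraries spanned 0.82. The log2 fold change was −1.08 (SE 0.27; edgeR unadjusted p = 0.0054, adjusted p = 0.447). In DESeq2 the adjusted p was 0.0174 with all libraries, and it stayed under 0.05 without wildtype replicate 1 (1.27e-06) or knockout replicate 1 (0.046). Omitting wildtype replicate 2 gave 0.228, wildtype replicate 3 gave 0.0684, knockout replicate 2 gave 0.163 and knockout replicate 3 gave 0.161.

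The glutamate transporters differed from each other. Slc1a2, which encodes GLT-1 (chromosome 2, 102658239 to 102790784, plus strand), was at 122.5, 137 and 76.4 CPM in wildtype nerve and at 79.1, 71.8 and 55.0 CPM in knockout nerve. Only wildtype replicate 3 and knockout replicate 1 overlapped. The log2 fold change was −0.71 (SE 0.25; edgeR unadjusted p = 0.0271, adjusted p = 0.827), and DESeq2 called the gene without wildtype replicate 3 (−0.92, adjusted p = 0.00253) and in none of its 6 other fits. Slc1a3, which encodes GLAST (chromosome 15, 8634124 to 8710807, minus strand), was the steadiest marker in wildtype nerve, at 165, 164 and 153 CPM, and was at 163, 147 and 122 CPM in knockout nerve. Its log2 fold change was −0.16 (SE 0.15; edgeR unadjusted p = 0.321). The ratio of Slc1a2 to Slc1a3 counts within a library was 0.741, 0.839 and 0.499 in wildtype and 0.484, 0.489 and 0.452 in knockout nerve, with no overlap but with wildtype replicate 3 close to the knockout libraries.

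Gfap (gene identifier 14580, chromosome 11, 102887336 to 102897200, minus strand), the astrocyte filament gene whose promoter window is printed above, was at 366, 512 and 236 CPM in wildtype nerve and at 253, 273 and 144 CPM in knockout nerve. The groups overlapped, because wildtype replicate 3 lay below knockout replicates 1 and 2. The log2 fold change was −0.73 (SE 0.35; edgeR unadjusted p = 0.0766). Aldoc, the brain form of the glycolytic enzyme aldolase (chromosome 11, 78323073 to 78327781, plus strand), was at 246, 335 and 160 CPM in wildtype nerve and at 201, 247 and 230 CPM in knockout nerve. Its knockout libraries lay inside the wildtype range, with a log2 fold change of −0.13 (SE 0.27; edgeR unadjusted p = 0.653) that turned to 0.16 without wildtype replicate 2.

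Aldh1l1, a folate enzyme widely used as a marker of all astrocytes (chromosome 6, 90550768 to 90599171, plus strand), was at 22.1, 28.2 and 42.6 CPM in wildtype nerve and at 21.3, 17.8 and 12.1 CPM in knockout nerve. The groups did not overlap, and wildtype replicate 1 and knockout replicate 1 were nearly level. The log2 fold change was −0.86 (SE 0.31; edgeR unadjusted p = 0.0276, adjusted p = 0.827) and −0.56 without wildtype replicate 3, which held the highest value.

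S100b, a calcium-binding protein gene of glia (gene identifier 20203, chromosome 10, 76253836 to 76261319, plus strand), was at 959, 1274 and 3837 CPM in wildtype nerve and at 724, 1941 and 1378 CPM in knockout nerve. Fgfr3, a fibroblast growth factor receptor (chromosome 5, 33721724 to 33737068, plus strand), was at 26.9, 27.3 and 85.1 CPM in wildtype nerve and at 39.4, 24.8 and 23.2 CPM in knockout nerve. The wildtype mean of each was set by wildtype replicate 3. The log2 fold changes of −0.59 for S100b (SE 0.60; edgeR unadjusted p = 0.36) and −0.67 for Fgfr3 (SE 0.49; edgeR unadjusted p = 0.217) turned to 0.26 and 0.10 without that library, so no direction can be given for either gene. S100b made up 45.6% to 81.4% of the summed CPM of the 9 markers. That sum was 3192 ± 1356 CPM in wildtype against 2128 ± 628 CPM in knockout nerve, and without S100b it was 1169 ± 306.5 and 780.2 ± 124 CPM (SD, n = 3).

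**Figure D2:**
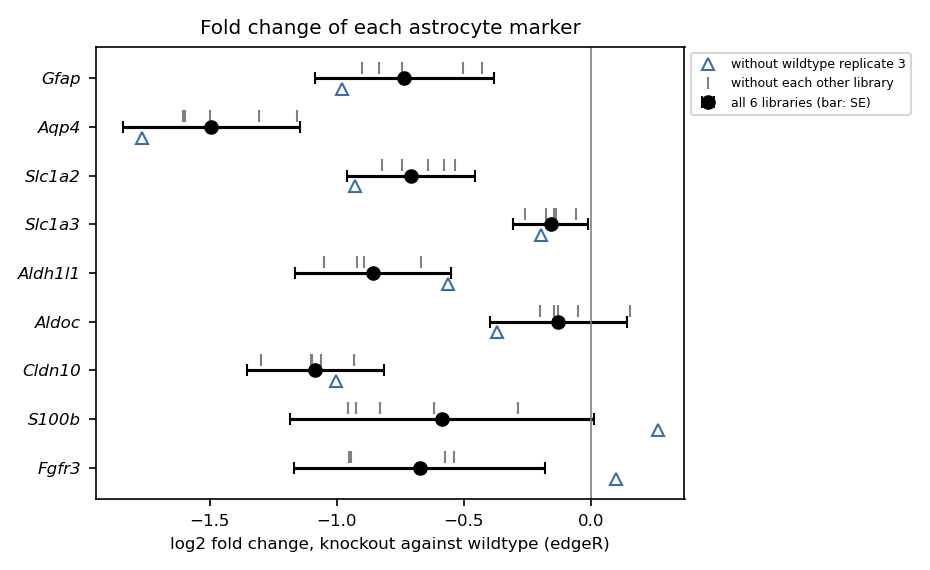
The log2 fold change of each marker, knockout against wildtype (edgeR), with all 6 libraries (black point, bar for the SE), without wildtype replicate 3 (blue triangle) and without each other library in turn (gray ticks). Aqp4 and Cldn10 stay at −0.93 or below in every fit, and S100b and Fgfr3 move from −0.59 and −0.67 to above 0 without wildtype replicate 3.

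Over the 6 libraries the markers did not share a common profile. The measure used was the root mean square difference between the profiles of 2 genes over the 6 libraries, each profile being log2 CPM minus the gene's mean. The closest pair was Gfap and Slc1a2, at 0.19. Aqp4 was closest to Gfap (0.37), Slc1a3 and Aldoc to each other (0.34), Cldn10 and Aldh1l1 to each other (0.35), Fgfr3 to Aldh1l1 (0.38) and S100b to Fgfr3 (0.65). The widest distance was between Aqp4 and S100b, at 1.18, and Gfap and S100b were 1.04 apart.

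**Figure D3:**
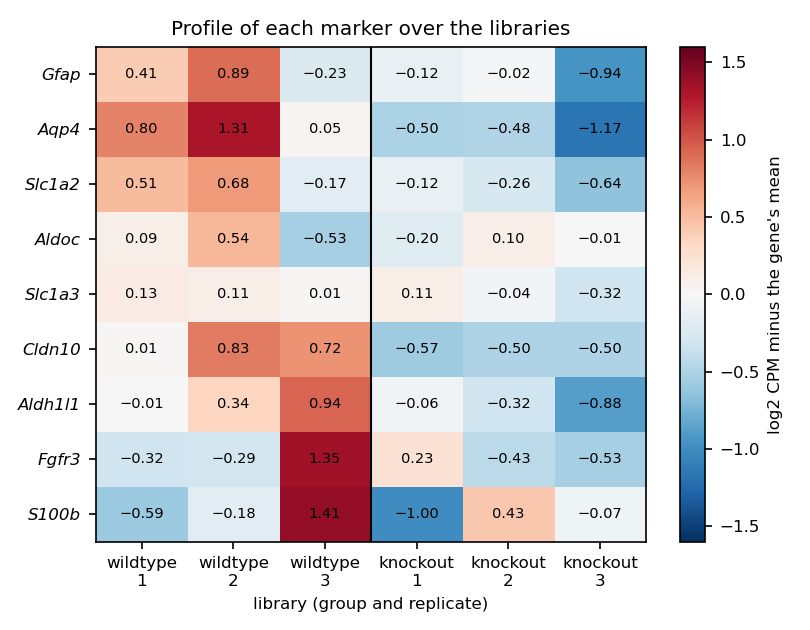
Log2 CPM of each marker minus its mean over the 6 libraries, as a heat map with red above and blue below the mean. In wildtype replicate 3 the values run from −0.53 for Aldoc to 1.41 for S100b, and in knockout replicate 3 from −1.17 for Aqp4 to −0.01 for Aldoc.

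Other genes with a profile like that of the markers were looked for in the same way among genes with a mean of at least 5 CPM. The 10 nearest to the mean profile of the 9 markers, at 0.06 to 0.12, included I830012O16Rik, Arsg, Aldh1a1, Slc6a7, Rab37, Pdpn, Cbs, Gbp3 and Irgm1. All 10 were lower in every knockout library than in any wildtype library, which follows from the shape of the mean profile. The nearest genes to single markers, named here after their values were seen, differed by marker. For Gfap they were Psd2, Mlc1, Slc39a12, Slc25a18 and the microglial receptor P2ry12 (0.14 to 0.18), for Aqp4 Ntsr2, Acsbg1, Ppp1r14c, Ipw and the oligodendrocyte gene Ermn (0.22 to 0.31), and for Slc1a2 Psd2, Slc25a18, Gpr17, Myrf and Mobp (0.06 to 0.12), the last 3 being genes of the oligodendrocyte lineage. For S100b they were Tpd52l1, Car3, Ppp1r1b, Clca5 and Mgll (0.14 to 0.19).

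Of 30 other genes used as astrocyte markers, 25 had a negative and 5 a positive fold change, the median log2 fold change was −0.58, and none passed in edgeR. At an unadjusted p under 0.05, 7 were lower and 1 was higher, against 2.64% and 2.56% of all genes. In every knockout library 5 lay below all wildtype libraries and 1, Dio2, above them (4.93% and 5.41% of all genes). Of all genes, 0.723% were called lower in DESeq2. DESeq2 called Cbs lower, an enzyme of homocysteine metabolism that was at 13.5, 17.8 and 15.9 CPM in wildtype nerve and at 8.88, 9.47 and 7.75 CPM in knockout nerve (log2 fold change −0.85, SE 0.18; edgeR unadjusted p = 0.00228, DESeq2 adjusted p = 0.00335). Ntsr2, a neurotensin receptor largely restricted to astrocytes in the brain, was at 20.2, 32.3 and 9.88 CPM in wildtype nerve and at 7.17, 9.76 and 6.51 CPM in knockout nerve. Those groups did not overlap, although wildtype replicate 3 and knockout replicate 2 were nearly level. Among the most abundant genes of the list, Sparcl1 was at 3914 ± 253 and 4168 ± 334 CPM and glutamine synthetase (Glul) at 1991 ± 1077 and 1191 ± 51.1 (wildtype and knockout, SD, n = 3). In wildtype replicate 3, 12 of the 30 genes were above and 12 below both other wildtype libraries, shares near the 37.6% and 41.2% of all genes. Ntsr2, chosen after its values were seen, is also a gene nearest to Aqp4 above.

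Genes of the complex that anchors AQP4 at the endfoot, and genes related to it, gave no calls. None of 14 genes of that complex and its relatives passed in edgeR or DESeq2 or had an unadjusted p under 0.05, and the median log2 fold change was −0.20, with 12 negative and 2 positive. Dag1, which encodes dystroglycan, was at 283 ± 32.3 and 272 ± 19.1 CPM, utrophin (Utrn) at 376 ± 89.1 and 350 ± 156, and the potassium channel Kcnj10 at 293 ± 173 and 162 ± 35.1 (wildtype and knockout, SD, n = 3). Kcnj10, which is also on the list of satellite glia markers, was at 492 CPM in wildtype replicate 3 and at 125 to 200 CPM in the other libraries. Which cells these transcripts came from was not measured. Whether Aqp4 differed more than these genes was not tested. Of 13 genes of glutamate transport and recycling 12 were tested, with 6 negative and 6 positive fold changes, a median of −0.03 and none past an unadjusted p of 0.05. The neutral amino acid carriers Slc38a2 and Slc38a1 were at 906 ± 94.4 and 759.5 ± 71.8 CPM and at 348 ± 63.4 and 384 ± 39.2 CPM (wildtype and knockout, SD, n = 3).

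Genes that astrocytes raise on injury gave mixed signs. Of 37, 22 had a negative and 15 a positive fold change, with a median of −0.16, and Serpina3n, a protease inhibitor induced in reactive astrocytes, was the only one that passed in edgeR. At an unadjusted p under 0.05, 5 were lower and 2 higher, against 2.64% and 2.56% of all genes. DESeq2 called Serpina3n higher and Iigp1, an interferon-induced GTPase, lower, against 1.39% of all genes in either direction. Iigp1 was at 8.21, 7.29 and 7.26 CPM in wildtype nerve and at 3.87, 4.86 and 3.39 CPM in the knockouts, with no overlap (log2 fold change −0.91, SE 0.22; edgeR adjusted p = 0.388, DESeq2 adjusted p = 0.00794). Serpina3n was at 2.42, 4.40 and 2.37 CPM in wildtype nerve and at 26.7, 36.2 and 27.3 CPM in knockout nerve (log2 fold change 3.29, SE 0.31; edgeR adjusted p = 0.0208). Gfap, the filament gene most used to score that state, had a fold change of the opposite sign in the same libraries. Its groups overlapped, and neither edgeR (unadjusted p = 0.0766) nor DESeq2 called it. Vimentin (Vim) was at 278 ± 21.4 and 249.7 ± 9.74 CPM (wildtype and knockout, SD, n = 3).

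Relatives of the markers and their regulators gave no calls. Of all genes, 2.64% were lower and 2.56% higher at an unadjusted p under 0.05. None of 28 members of the same gene families passed in edgeR or DESeq2 (1 lower and 1 higher at an unadjusted p under 0.05, median −0.12), among them the ubiquitous aldolase Aldoa at 1414 ± 21.7 and 1530 ± 70.4 CPM, S100a1 at 438 ± 295 and 386 ± 113, and Fgfr1 at 327 ± 44.9 and 295 ± 12.5 (wildtype and knockout, SD, n = 3). S100a1 was, like S100b, highest in wildtype replicate 3, at 774 CPM against 219 to 475 CPM elsewhere. Of 14 ligands of FGF receptors and genes that respond to FGF signals 12 were tested, 9 of them negative, with a median of −0.28, none past edgeR or DESeq2 and 1 lower at an unadjusted p under 0.05, and the ligand Fgf1 was at 586 ± 162 and 589.9 ± 111 CPM (SD, n = 3). Of 17 transcription regulators of astrocytes 16 were tested, none past edgeR or DESeq2, 1 lower at an unadjusted p under 0.05, with a median of −0.02, including Nfix at 133 ± 47.4 and 98.2 ± 3.74, Id3 at 145 ± 37.2 and 181 ± 59.9 and Stat3 at 105 ± 14.9 and 87.6 ± 13.4 CPM (wildtype and knockout, SD, n = 3).

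Markers of other cells did not all move alike. Oligodendrocyte markers, the myelin-forming glia of the same central segment, were negative in 15 of 16 genes with a median of −0.81. None passed in edgeR, 6 were lower at an unadjusted p under 0.05, and 2 (Enpp6 and Tspan2) passed in DESeq2 as lower. Of all genes, 2.64% were lower at that unadjusted p and 0.723% were called lower by DESeq2. All 16 markers were lower in wildtype replicate 3 than in both other wildtype libraries, against 41.2% of all genes. The 16 markers summed to 1048 to 1995 CPM in wildtype against 1040 to 1420 CPM in knockout nerve. For Cnp, which Schwann cells also make and which was the most abundant, the means were 856 ± 205 and 896 ± 145 CPM (SD, n = 3), and without it the sums were 619, 929 and 392 CPM in wildtype against 312, 438 and 351 CPM in knockout nerve. Microglia markers summed to 320.0 to 374 and 267 to 313 CPM (11 genes, 7 of them negative, median −0.29). The Schwann cell list had a median of −0.06 (12 genes) and summed to 5497 to 8528 CPM in wildtype against 5964 to 8162 CPM in knockout nerve. Spiral ganglion neuron markers had a median of 0.11 (12 genes, 4 of them negative). They summed to 7575 CPM in wildtype replicate 3 against 12868 to 14526 CPM in the other libraries. The 12 neuron genes of the brainstem and cerebellum summed to 95.3 to 264 CPM in wildtype libraries and to 120 to 217 CPM in knockouts. Most of that sum was Slc17a6 (88.1 to 247 CPM), a glutamate transporter gene that other neurons also use. Of the others, the granule neuron gene Cbln1 was at 2.76 to 15.4 CPM and Gad1, an enzyme of GABA synthesis, at 1.33 to 2.18 CPM, while Slc32a1, Slc6a5, Gad2 and Gabra6 were at 0.723 CPM or less in every library. Cochlear supporting cell markers summed to 3660 CPM in wildtype replicate 3 against 1461 to 2384 CPM in the other libraries, and hair cell markers to 576 against 254 to 364 CPM. Stria and spiral ligament markers summed to 21812 CPM there, against 8878 to 18736 CPM. The part of these cells in the marker values was not tested.

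The markers were also set against the oligodendrocyte markers of the same library, a measure chosen after the values were seen. Gfap, Aqp4 and Aldoc varied least within the wildtype group, followed by Slc1a2, and the remaining markers varied more. Gfap was 59.1%, 55.1% and 60.2% of the summed CPM of the 15 oligodendrocyte markers without Cnp in wildtype and 81.2%, 62.2% and 41.0% in knockout nerve. Aqp4 was 31.1%, 29.6% and 29.2% in wildtype and 25.1%, 18.1% and 14.0% in knockout nerve. Aldoc was 39.8%, 36.1% and 40.9% in wildtype and 64.5%, 56.5% and 65.5% in knockout nerve, thus on the other side. Slc1a2 was 19.8%, 14.8% and 19.5% in wildtype and 25.4%, 16.4% and 15.7% in knockout nerve, and the groups overlapped. Wildtype replicate 3, low in CPM for Gfap, Aqp4 and Aldoc, was level with the other wildtype libraries for them on this measure. It was also low in CPM for Slc1a2, where it lay near wildtype replicate 1 and above wildtype replicate 2. It stayed apart for S100b (980% against 155% and 137% in wildtype replicates 1 and 2), Fgfr3 (21.7% against 4.35% and 2.94%), Aldh1l1 (10.9% against 3.57% and 3.04%) and Slc1a3 (39.1% against 26.7% and 17.6%). Aqp4, lower in the knockouts, and Aldoc, higher, were the 2 of the 9 markers without overlap between groups. With 3 libraries against 3 the exact 2-sided permutation p of each was 0.1 (0.45 adjusted over the 9 markers). An exact p of 0.1 is the smallest this design allows. Of all genes 31.9% did not overlap, with both directions pooled and not counted apart. The oligodendrocyte sum without Cnp itself had a lower knockout mean (367 ± 64.7 against 646 ± 270 CPM, SD, n = 3). A gene with unchanged CPM therefore rises on this measure. Aldoc rose although its own log2 fold change was −0.13, whereas Aqp4 fell. The log2 difference of the ratio was −0.69 for Aqp4, 0.67 for Aldoc, 0.03 for Gfap and 0.06 for Slc1a2.

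**Figure D4:**
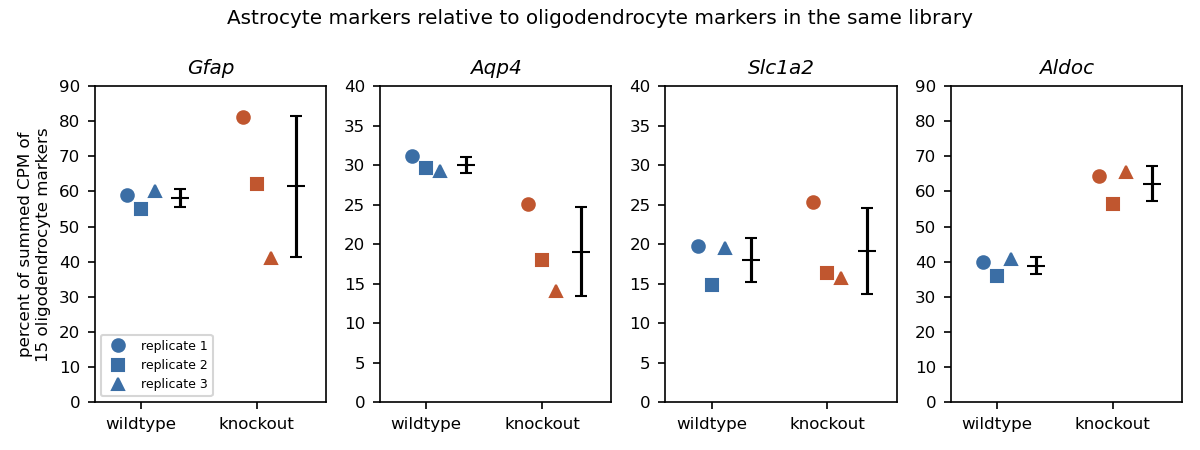
CPM of Gfap, Aqp4, Slc1a2 and Aldoc as a percentage of the summed CPM of 15 oligodendrocyte markers (without Cnp) in the same library, by group, with the replicate number as the symbol and bars for the mean ± SD over 3 libraries. The wildtype values of Aqp4 lie within 29.2% to 31.1%, above all knockout values (14.0% to 25.1%), and those of Aldoc lie below all knockout values.

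A comparison within the library by pairs of markers also separated Aqp4 from Gfap. The ratio of Gfap to Aqp4 counts was 1.90, 1.86 and 2.06 in wildtype and 3.24, 3.44 and 2.93 in knockout nerve. The log2 ratio differed by 0.72, against SDs of 0.08 in wildtype and 0.12 in knockout nerve, so the difference exceeded the spread between libraries. The exact 2-sided permutation p was 0.1, the smallest this design allows (0.36 adjusted over the 36 pairs of markers). This pair was not named in advance. The ratio of Gfap to Slc1a2, by contrast, was 2.99, 3.73 and 3.09 in wildtype and 3.20, 3.7999 and 2.62 in knockout nerve, and overlapped (exact permutation p = 1.0). Of the 36 pairs 10 did not overlap between the groups, and over all pairs of genes 11.5% did not. For ratios to Aqp4 it was 4 of 8 markers against 70.1% of all genes, and for ratios to Gfap 2 of 8 against 20.7%, so a separation of Aqp4 from another gene was common across the transcriptome.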

How the data were processed

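RNA of the auditory nerve was sequenced in 6 libraries, 3 wildtype and 3 Vcan knockout, grouped and numbered by their titles. The submitters' processing notes name the build mm10 and the tools HTSeq and DESeq2. Versions, aligner, strandedness and the handling of reads that match several genes were not given there or in the other sources used here. The authors deposited raw counts per gene, and in the same table a mean of normalised counts (signal), their own log2 fold changes and errors, a test score, p-values and adjusted p-values, per the file headers. The authors' values are used only where their table is named.

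The table has 24067 rows. Aqp4 and 4 other symbols each had 2 rows of the same counts, and these were merged. Genes were kept by filterByExpr (16722), scaled by TMM (factors 0.964 to 1.02) and tested with the robust 2-sided quasi-likelihood F test of edgeR 4.0.16 in R 4.3.3, with Benjamini-Hochberg adjustment over all genes and a threshold of 0.05. The SE of a log2 fold change is its size over the square root of F. CPM is TMM-scaled, and SDs are over the 3 libraries of a group. No label says that libraries are more than separate mice, so p-values set the difference between groups against the spread between these samples. The column headers number the wildtype and the knockout libraries in separate runs, and what those numbers stand for is not given. Genotype cannot be told apart from it. DESeq2 1.42.0, other scalings and filters, a replicate block and the omission of each library were alternatives, and DESeq2 without each library was added after seeing the data. The scripts were tested on simulated counts. No 2 libraries agreed within sampling noise (lowest chi-square per degree of freedom 39.9).

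The members and gene lists were chosen with earlier results of these data known. The rule named all 9 markers, up to 4 genes of each list past the threshold or else up to 3 of the highest mean, and the 10 genes nearest to the mean profile, of which not all are reported here. Coordinates and promoter windows come from RefSeq (GRCm38.p6, the assembly of mm10), with a window for 8 of the 9 markers, and exon lengths from GENCODE vM21. Slc1a2, Aldh1l1 and Fgfr3 share exon bases (166, 438 and 437) with a gene annotated on the opposite strand, whose reads cannot be told apart without strand.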

Additional observations from a re-analysis of the deposited data

How the results depend on the processing

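The median log2 fold change of the 9 markers was −0.71 and stayed between −0.93 and −0.56 over 20 alternatives. Gfap, Aqp4, Slc1a2, Slc1a3, Aldh1l1 and Cldn10 kept a negative sign in all 20. DESeq2 with all libraries called 252 genes in place of 23, 2 of the 9 markers in place of 0, Aqp4 (−1.49) and Cldn10 (−1.09). Leaving out 1 library in edgeR gave 3 to 14 genes, 0 markers called, and log2 fold changes of −1.77 to −1.16 for Aqp4 and −1.30 to −0.93 for Cldn10. It gave −0.93 to −0.53 for Slc1a2, −0.37 to 0.16 for Aldoc (positive without wildtype replicate 2), −0.95 to 0.26 for S100b and −0.95 to 0.10 for Fgfr3 (both positive without wildtype replicate 3). DESeq2 without 1 library, added after seeing the data, gave 194, 175 and 436 genes without wildtype replicates 1, 2 and 3, gave 575, 160 and 168 without knockout replicates 1, 2 and 3, and 0 to 2 markers, with −1.76 to −1.17 for Aqp4, −1.30 to −0.94 for Cldn10, −0.92 to −0.54 for Slc1a2, −0.36 to 0.15 for Aldoc, −0.94 to 0.27 for S100b and −0.96 to 0.11 for Fgfr3. In these fits the markers called were Cldn10 (−1.30) without wildtype replicate 1, Aqp4 (−1.76) and Slc1a2 (−0.92) without wildtype replicate 3, Aqp4 (−1.5998) and Cldn10 (−1.07) without knockout replicate 1, and Aqp4 (−1.5963) without knockout replicate 2. The cause was not tested. By the numbers in the titles, correlations of same-numbered samples' deviations were 0.486, 0.353 and −0.164. The highest over all pairs of a wildtype and a knockout library was 0.512, for wildtype replicate 2 with knockout replicate 3. The descriptions number the knockout mice 1, 3 and 4, which leaves 2 shared numbers (0.486, and 0.168 for wildtype replicate 3 with knockout replicate 2). The samples were taken to share only a number. The replicate block, by title number, gave 3 genes and no marker.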

Other observations

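Wildtype replicate 3, the library with the highest S100b, Fgfr3 and Aldh1l1, also held the highest level of each of 13 genes that glucocorticoids are known to induce, a list written after Fkbp5 and others had been seen. Of all genes tested, 26.0% were highest in that library. Fkbp5, a co-chaperone of steroid receptors, was at 325 CPM there and at 15.8 to 35.6 CPM in the other 5 libraries. Plin4, a lipid droplet protein, was at 207 against 4.08 to 11.03 CPM, and the zinc finger gene Zbtb16 at 112 against 4.07 to 33.8 CPM. Over the 13 genes the level was 1.73 to 21.5 times the mean of wildtype replicates 1 and 2. The part of these genes in the marker values was not tested.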
